A study of Mus musculus with 4 samples.

Results

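The cells described here are neurons of mouse inner ear organoids that carried RNA of the transcription factor genes Otp or Lhx1. They numbered 483 of the 15416 cells that passed the filters, and they came from 2945 cells that met a gate for neurons. A cell passed the filters with at least 1000 detected genes and at most 15% of its UMIs (unique molecular identifiers, each standing for 1 captured RNA molecule) from mitochondrial genes. The neuron gate required Tubb3, a neuronal tubulin, at 500 CPM or more (CPM is the share of a cell's or a set's UMIs that fall on a gene, scaled to a total of 1000000) and Stmn2, a regulator of microtubules in growing axons, at 200 CPM or more. It also required Otof, a hair cell gene, under 100 CPM and Ccer2 under 10000 CPM. Of the gated cells, those with at least 1 Otp UMI or at least 2 Lhx1 UMIs were kept if they had fewer than 2 Lhx9, 3 Neurod1 and 2 Slc32a1 UMIs. The members were therefore chosen on the same counts that are described below, and the levels of the genes in this rule are descriptions only.

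Lhx1 encodes a LIM homeodomain transcription factor that is switched on in many neurons soon after their birth in the hindbrain and spinal cord, and in the precursors of cerebellar Purkinje cells. Otp encodes another homeodomain factor, known from hypothalamic neurons that secrete peptide hormones and from interneurons of the hindbrain and spinal cord. In the hindbrain and spinal cord each newborn neuron takes a code of such factors that goes with its place of birth and its transmitter: Evx1 marks excitatory neurons whose axons cross the midline, and En1 marks inhibitory neurons of the ventral cord and also the midbrain and cerebellar territory. The sensory neurons that serve the inner ear itself are known for other factors, among them Neurod1, Isl1 and Pou4f1.

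The organoids are aggregates grown from 1 mouse embryonic stem cell line, Atoh1-nGFP, in which nuclear GFP reports Atoh1, the factor that starts hair cell formation; all groups share this line and reporter. Cells of dissociated organoids were sorted on GFP, and 10x Genomics droplet libraries were made from day 16, day 20, and day 21 cells with high or low GFP signal, 1 library each. The GFP gate used at days 16 and 20 is not given in the labels, and the labels speak of single nuclei in one place and of cells in another. With 1 library per group no difference between groups has a replicate check, no test was possible, and every interval below covers counting error only.

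The libraries held 3844 to 5619 barcodes, of which 3496 (day 16), 4553 (day 20), 3544 (GFP high) and 3823 (GFP low) passed the filters. Members had a median of 15257, 14247, 20324 and 23165 UMIs in that order, and a median mitochondrial share of 3.48%, 1.31%, 4.65% and 3.41%. No member barcode occurred in 2 libraries. Markers of other cell types were counted in the members. Summed over 8 mesenchyme markers the level was 482, 618, 2.04 and 93.3 CPM at day 16, day 20, GFP high and GFP low, with up to 24184 CPM in a single GFP low cell. Summed over 8 epidermis markers it was 400, 11.6, 10.2 and 46.8 CPM, and over 12 hair cell markers 40.6, 29.9, 77.3 and 37.4 CPM. Over 12 neural progenitor markers it was 329, 438, 568 and 499 CPM, and over 6 Merkel cell markers 182, 167, 181 and 205 CPM. The other gated neurons held more of both in every library. Over 8 glia markers it was 12.2, 2.49, 102 and 54.3 CPM. Of the 7 pluripotency markers and of the 6 markers of endothelium and blood none reached 10 CPM in the members of any library. The sum over 17 neuron markers was 12890, 14059, 15354 and 15099 CPM.

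By library the members numbered 185 at day 16, 80 at day 20, 23 in the GFP high library and 195 in GFP low. They made up 5.29% of the kept cells at day 16 (exact 95% interval 4.57 to 6.09%), 1.76% at day 20 (1.40 to 2.18%), 0.649% in GFP high (0.412 to 0.972%) and 5.10% in GFP low (4.42 to 5.85%). The shares at day 16 and in GFP low had overlapping intervals, and both other shares lay below them. Within the neuron gate the members were 15.8% at day 16, 12.8% at day 20, 11.6% in the GFP high library and 20.5% in GFP low. The sort sets how many neurons enter each day 21 library, so these shares describe the sorted libraries and not the organoids. When every cell was thinned to 5000 UMIs and the rule was applied again, the shares of kept cells were 7.77%, 2.27%, 0.859% and 6.79%; 652, 943, 52 and 232 shallower cells were left out.

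The edge of the rule was thickly populated. At day 16, 490 gated cells had Otp or Lhx1 at the required level, and 305 of them were dropped for Lhx9, Neurod1 or Slc32a1, 205 of these for Slc32a1 alone. Slc32a1 encodes the vesicular transporter of GABA and glycine. A further 90 of the 185 day 16 members had exactly 1 Slc32a1 UMI, against 29 of 80 at day 20, 5 of 23 in the GFP high library and 32 of 195 in GFP low. In GFP low 466 cells had Otp or Lhx1 at the required level and 271 were dropped, 184 for Slc32a1 alone. Cells without Otp that entered with exactly 2 Lhx1 UMIs numbered 28, 12, 2 and 13, and cells just outside with 1 Lhx1 UMI numbered 62, 28, 0 and 24. Cells that entered through a single Otp UMI alone numbered 1, 0, 0 and 12.

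Otp was rare in the members on days 16 and 20 and common at day 21. It was found in 6 of 185 members at day 16 (3.24%, 1.20 to 6.93%), in 10 of 80 at day 20 (12.5%, 6.16 to 21.8%), in 12 of 23 in GFP high (52.2%, 30.6 to 73.2%) and in 127 of 195 in GFP low (65.1%, 58.0 to 71.8%). The day 16 and day 20 libraries thus held mainly Lhx1 cells without Otp, 179 of 185 and 70 of 80. In GFP low 93 members met both conditions, 68 met the Lhx1 condition without Otp and 34 met the Otp condition alone; in GFP high these were 8, 11 and 4. With the rule applied to counts thinned to 5000 UMIs, the Otp share was 8 of 221, 15 of 82, 21 of 30 and 163 of 244 cells. As a level of stray RNA, Otp had a UMI in 0 of 51, 0 of 57, 7 of 1790 and 13 of 375 cells of a hair cell gate (Otof at 500 CPM or more and Stmn2 under 200), and in 0 of 780, 1 of 1865, 0 of 56 and 3 of 106 cells of a mesenchyme gate (Col3a1 at 1000 CPM or more and Tubb3 under 100). In GFP low the hair cell gate share was 3.47%, against 65.1% of members, at a median of 23165 UMIs in the members. An Otp UMI was a way into the member set and not into the hair cell gate, so this contrast is a description only.

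**Figure D1:**
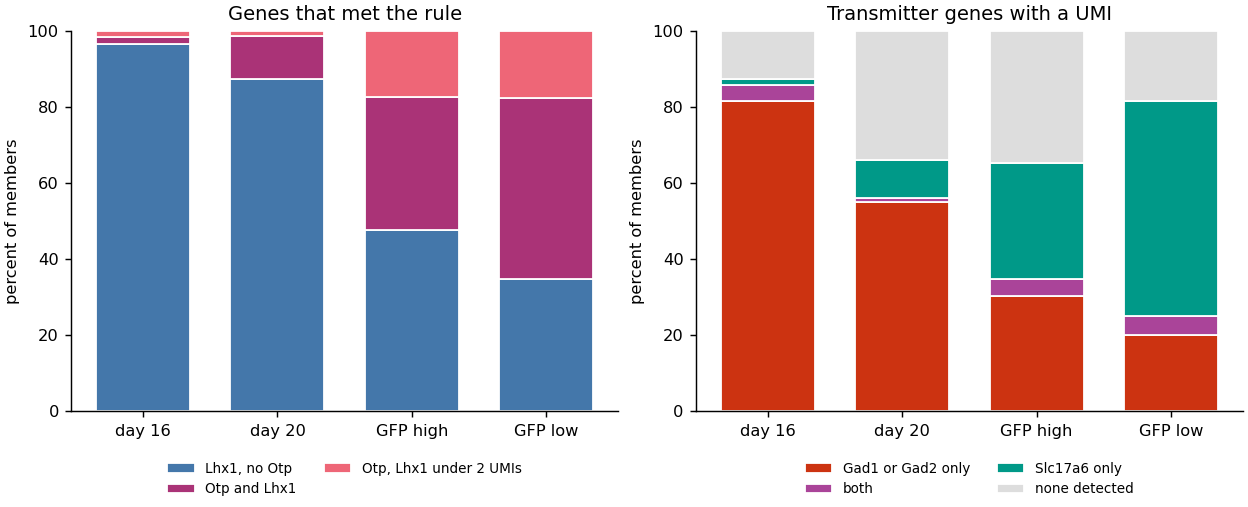
Percent of members in each library (bars, stacked) by the genes that met the rule (left) and by transmitter genes with at least 1 UMI (right). Otp was found in 3.24% of members at day 16 and in 65.1% in GFP low, and Slc17a6 without Gad1 or Gad2 in 1.62% and 56.4%.

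The rule genes had the following summed levels. Otp (ENSMUSG00000021685, chromosome 13, 94875602 to 94885130, plus strand, GRCm38) stood at 20.3 CPM at day 16 (95% Poisson interval 15.5 to 26.1), 116 CPM at day 20 (97.9 to 137), 674 CPM in GFP high (603 to 750) and 551 CPM in GFP low (531 to 572). Lhx1 (ENSMUSG00000018698, chromosome 11, 84518284 to 84525535, minus strand) was at 533 CPM (508 to 560), 515 CPM (476 to 558), 464 CPM (406 to 528) and 349 CPM (333 to 366) in the same order. Otp was therefore lowest at day 16 and highest at day 21, whereas Lhx1 varied less and was lowest in GFP low. Both levels depend on the rule: a cell could enter by Otp without Lhx1, as 25 of 195 GFP low members did. Tubb3 lay between 2504 and 3503 CPM and Stmn2 between 2117 and 3515 CPM in the 4 libraries. Lhx5, a close relative of Lhx1 that the rule did not use, was at 119, 97.3, 200 and 101 CPM.

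Onecut2 and Pou2f2, the remaining markers given for these cells, were not general to them. Onecut2 encodes a transcription factor of early-born neurons of the hindbrain and spinal cord. It was at 11.2 CPM at day 16 (7.69 to 15.7; 18 of 185 cells), 167 CPM at day 20 (145 to 192; 26 of 80), 155 CPM in GFP high (122 to 194; 16 of 23) and 522 CPM in GFP low (502 to 543; 158 of 195). The day 16 members lay below the other gated neurons of their library (88.6 CPM), and the GFP low members above theirs (221 CPM). Pou2f2, which encodes a POU domain factor, was at 45.7, 81.5, 311 and 218 CPM, against 68.3, 54.6, 131 and 188 CPM in the other gated neurons. At day 16, then, the label's Onecut2 and Pou2f2 were not raised, and the cells are best called by their rule.

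**Figure D2:**
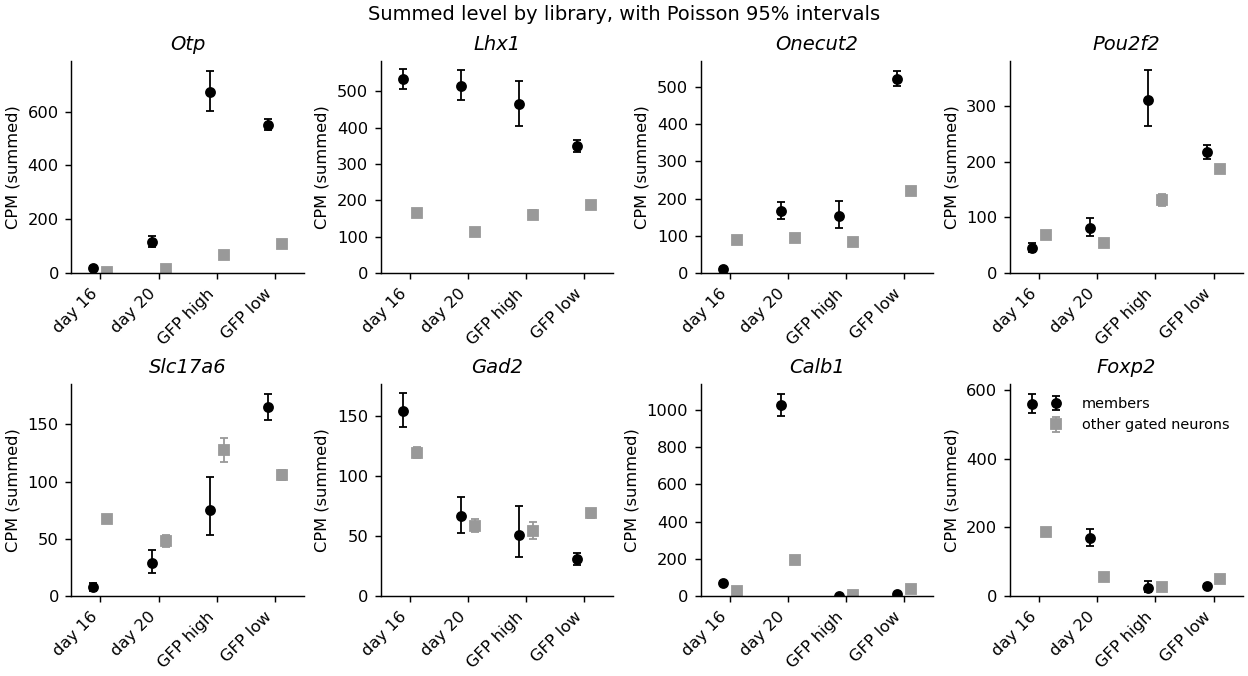
Summed level of 8 genes (vertical axes, CPM) in the 4 libraries for members (black circles) and all other cells of the neuron gate (grey squares), with Poisson 95% intervals. Otp was highest at day 21, Calb1 reached 1024 CPM in day 20 members alone, and Slc17a6 and Gad2 ran in opposite directions from day 16 to GFP low.

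Transmitter genes also differed between libraries. Slc17a6, the vesicular glutamate transporter VGLUT2 (ENSMUSG00000030500, chromosome 7, 51622006 to 51671119), was at 7.79 CPM at day 16, 29.1 at day 20, 75.3 in the GFP high library and 165 in GFP low. Gad2, which makes GABA, was at 155, 66.5, 50.9 and 30.9 CPM, and Gad1, its sister enzyme, at 73.8, 39.1, 38.7 and 13 CPM. Counted by cell, 151 of 185 day 16 members had Gad1 or Gad2 and no Slc17a6 (81.6%, 75.3 to 86.9%), and 3 had Slc17a6 alone. In GFP low 110 of 195 had Slc17a6 alone (56.4%, 49.1 to 63.5%), 39 had Gad1 or Gad2 alone, 10 had both and 36 had none. Day 20 held 44 Gad cells, 8 Slc17a6 cells, 1 with both and 27 with none, and GFP high 7, 7, 1 and 8. Among members without an Otp UMI, Slc17a6 alone was in 3 of 179 cells at day 16 and in 31 of 68 in GFP low. The rule dropped cells with 2 or more Slc32a1 UMIs, so the Gad cells among the members are those with little Slc32a1. In the mesenchyme gate of day 16, Gad2 had a UMI in 2.95% of cells and Slc17a6 in 0.897%.

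The reporter was read out as Egfp. Its level in the members was 1263 CPM at day 16, 1874 at day 20, 5125 in the GFP high library and 630 in GFP low. Atoh1 itself had 8, 4, 2 and 1 UMIs in all members of each library. In the mesenchyme gate Egfp stood at 1022, 1069, 1659 and 216 CPM, so the members lay above that level in every library, least at day 16.

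For comparisons across genes, a gene was called higher or lower by a rule of size, namely a CPM ratio of 2 or more and a counting interval that excluded 1. Genes were tested if one of the sets reached 50 CPM and both together held 30 or more UMIs. Against all other cells of the neuron gate, 44 genes were higher and 59 lower in members at day 16, of 3586 tested (1.23% and 1.65%). At day 20 it was 55 higher and 73 lower of 3477 (1.58% and 2.1%), in GFP high 88 and 147 of 3928 (2.24% and 3.74%), and in GFP low 21 and 50 of 3798 (0.553% and 1.32%). Of 4507 genes tested over all 4 libraries together, 1 was higher in every library (0.0222%) and 1 was lower (0.0222%). The gene higher throughout was Lhx1os, at 382, 352, 360 and 280 CPM in members against 139, 76.0, 117 and 135 CPM in the other neurons. Lhx1os is transcribed from the opposite strand beside Lhx1, and whether the counting kept strands apart is not given in the sources used here, so its reads cannot be told apart from those of the rule gene Lhx1. The gene lower throughout was Neurod1, which the rule excluded. No other gene passed the rule in all 4 libraries at these settings. With a minimum of 20 CPM the counts were 2 higher and 9 lower, with no minimum 2 and 31, and with Lhx1 accepted at 1 UMI 0 were higher.

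At day 16 the fewest genes separated the members from the Slc32a1 positive neurons of the same gate. Against them 25 of 3486 genes were called either way (0.717%), against 193 of 3636 for Lhx9 positive neurons (5.31%), 299 of 3722 for Neurod1 positive neurons (8.03%) and 128 of 3702 for gated neurons with none of these genes (3.46%). In GFP low the same counts were 125 of 3830 (3.26%), 338 of 4022 (8.4%), 135 of 3827 (3.53%) and 107 of 3853 (2.78%) in the same order, so there the fewest genes were called against neurons with none of these genes. The rule itself shapes these counts. Of the 289 Slc32a1 positive neurons at day 16, 205 had Otp or Lhx1 at the required level, and in GFP low 184 of 238. The class with none of these genes holds no such cell by construction. The classes also differ in size and depth, and the part of this in the counts was not tested.

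Day 16 members carried genes known from young Purkinje cells, the inhibitory output neurons of the cerebellar cortex. Of a list of 7 such genes 5 could be tested, and 4 of these 5 were higher in members than in the other gated neurons, against 1.23% of all genes tested. The list's median log2 ratio was 1.47, against -0.02 over all tested genes. Foxp2, a forkhead factor, was at 560 CPM in members (147 of 185 cells) and 185 CPM in the others. Rora, a nuclear receptor needed for Purkinje cell maturation, was at 306 CPM (130 cells) against 95.1 CPM. Pcp4, a calmodulin-binding peptide, was at 1453 CPM against 523 CPM, and Calb1, the calcium buffer calbindin, at 70.4 CPM against 29.5 CPM. Lhx5, the remaining tested gene, was at 119 CPM against 84.0 CPM and did not reach the required ratio. Against the Slc32a1 positive neurons of the same library, 0 of these 5 genes were called: there Foxp2 was at 381 CPM, Rora at 209, Pcp4 at 1032, Calb1 at 55.5 and Lhx5 at 153 CPM. The list therefore set the members apart from all other gated neurons together, and not by the size rule from that class. Of 17 tested axon guidance genes 4 were higher and 2 lower, against 1.23% and 1.65% of all genes tested: Epha5, a receptor of the ephrin system, was at 347 CPM against 116 CPM and the netrin receptor gene Unc5c at 136 CPM against 60.5 CPM. Neurod1 is lower by the rule, and of the 5 other tested neurogenic genes 3 were lower, against 1.65% of all genes tested: Insm1 (27.8 against 100 CPM), Nhlh1 (17.6 against 66.3 CPM) and Hes6 (71.4 against 167 CPM). None of Epha5, Unc5c, Insm1, Nhlh1 and Hes6 was called against the Slc32a1 positive neurons.

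At day 20 the summed level of the list was higher and the level of the median cell was not. The sum was 2564 CPM at day 16 and 6869 CPM at day 20, and the median over cells 1579 and 1073 CPM. Of its 6 tested genes 5 were higher than in the other gated neurons, against 1.58% of all genes tested, and its median was 1.97 against 0.01. This sets the members against all other gated neurons together. The size rule was not applied against the Slc32a1 positive neurons of day 20, so the list is not shown to be particular to the members. Pcp2, a Purkinje cell protein, was at 43.3 CPM at day 16, 657 at day 20, 0 in the GFP high library and 1.02 in GFP low. Calb1 was at 70.4, 1024, 0 and 11.6 CPM, and Car8, a carbonic anhydrase-related protein of Purkinje cells, at 165, 1007, 0 and 12.2 CPM. Foxp2 was at 560, 170, 24.4 and 29.1 CPM and Rora at 306, 275, 18.3 and 21.8 CPM. All 5 genes were therefore lower in the members of both day 21 libraries than in those of days 16 and 20. Foxp2 was highest at day 16, and Pcp2, Calb1 and Car8 at day 20. Rora was not called between these days. The Slc32a1 positive neurons of GFP low, which the rule set apart, were higher than the GFP low members for all 5. There Pcp2 was at 113 CPM, Car8 at 127, Calb1 at 65.9, Foxp2 at 79.5 and Rora at 77.7 CPM. In GFP low no gene of this list was higher than in the other gated neurons and Pcp4 was lower (177 against 528 CPM); in GFP high Pcp4 was also lower (81.4 against 658 CPM).

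Single cells split along these genes. Members with UMIs of at least 2 of Pcp2, Calb1 and Car8 numbered 36 of 185 at day 16, 35 of 80 at day 20, 0 of 23 in the GFP high library and 3 of 195 in GFP low. Members with none of the 3 numbered 91, 36, 23 and 184. Among the other gated neurons, the cells with at least 2 numbered 54 of 988 at day 16 and 45 of 543 at day 20. Both days thus held more such cells outside the members than among them. Cells with all 3 at day 20 numbered 26 of 80 members and 27 of 543 others. The grouping was chosen after the values were seen.

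At day 20 the 35 cells with at least 2 of these genes and the 36 cells with none were far apart: 842 of 3868 genes were called (21.8%), 413 higher (10.7%) and 429 lower (11.1%). The 3 genes that made the grouping are among those higher and are no result. Pcp4 was at 8428 CPM in the first set and 92.0 CPM in the second, Kitl, the ligand of the receptor Kit, at 771 and 6.27 CPM, and Rora at 470 and 25.1 CPM. Slc1a6, a glutamate transporter of Purkinje cells, was at 330 and 2.09 CPM, and Itpr1, the calcium channel of their endoplasmic reticulum, at 211 and 0 CPM. Gad1 was at 63.4 and 10.5 CPM and Gad2 at 60.2 and 69.0 CPM. Lhx1 was at 504 and 523 CPM. All but 1 of the 80 day 20 members entered with 2 or more Lhx1 UMIs, so its similar level is no result.

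The second set of day 20 cells carried other neuronal genes. Otp was at 0 CPM in the first set and 289 CPM in the second, Onecut2 at 0 and 402 CPM, Pou2f2 at 7.92 and 186 CPM, and Slc17a6 at 0 and 73.2 CPM. Meis2, a homeodomain factor, was at 3.17 and 634 CPM. The neuropeptide gene Cartpt was at 0 and 450 CPM and Nts, which encodes neurotensin, at 0 and 230 CPM (74.5% of its UMIs in 3 cells). Of 12 factors known for the birth order of neurons 7 could be tested, and all 7 were lower in the first set, against 11.1% of all genes tested: Onecut1, Onecut2, Pou2f2, Zfhx3, Zfhx4, Nfia and Nfib. Of 12 tested genes of the presynaptic machinery 5 were higher, against 10.7%, among them Cplx2 at 328 and 64.8 CPM and Vamp2 at 391 and 136 CPM, and 1, Syt4, was lower. All 6 tested mesenchyme markers were higher too, Col1a1 at 212 and 87.8 CPM with 95.5% of its UMIs in 3 cells; their part in the result was not tested. The first set was also deeper, with a median of 16929 UMIs against 12152.

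Cell by cell, Onecut2 and Calb1 were in separate cells at day 20: 26 members had Onecut2, 33 had Calb1 and 0 of 80 had both. At day 16 the counts were 18, 35 and 3 of 185, and in GFP low 158, 8 and 5 of 195. Of the 18 day 20 members with Cartpt 17 also had Onecut2, the count for Onecut2 and Cartpt in the same cell. Of the 10 with Otp, 9 had Onecut2, the count for Otp and Onecut2, and none had Calb1.

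**Figure D3:**
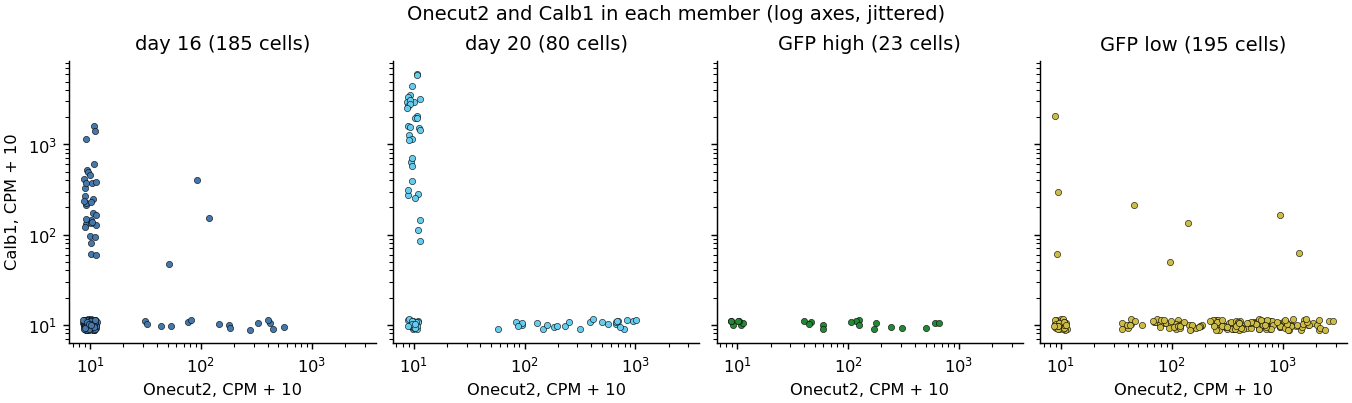
Calb1 against Onecut2 in each member, as CPM plus 10 on log axes with small random shifts, 1 panel per library. At day 20 the 33 Calb1 cells and the 26 Onecut2 cells lie on separate axes, and in GFP high no cell had Calb1.

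From day 16 to day 20, 102 genes were higher and 146 lower in the members, of 3666 tested (2.78% and 3.98%). Calb1, Pcp2 and Pcp4 were higher at day 20 and Foxp2 lower, which are the 4 genes called of 6 tested from the Purkinje list. The ratio was 14.5 for Calb1 (12.6 to 16.9) and 0.303 for Foxp2 (0.261 to 0.350). Onecut2 was higher with a ratio of 15 (10.3 to 22.3), as were Cartpt at 197 against 8.12 CPM, Meis2 at 275 against 29.5 CPM, Nts at 170 against 31.5 CPM and Crabp1, a retinoic acid binding protein, at 574 against 60.9 CPM. Of the day 20 UMIs of Crabp1 80.6% came from 3 cells. Engrailed genes were lower at day 20, En1 at 45.7 against 121 CPM and En2 at 72.3 against 229 CPM. Of 15 tested axon guidance genes 0 were higher and 6 lower (Robo3, Unc5c, Epha3, Epha7, Plxna4 and Nrp2), against 3.98% of all genes tested, and their median log2 ratio was -0.79 against 0.08. Both tested keratins were lower: Krt17 was at 208 CPM at day 16, in 19 of 185 cells, and at 0 at day 20, and Krt5 at 87.0 CPM and 0. Of the 8 epidermis markers 6 reached 10 CPM in the day 16 members and 1 at day 20, where 6 had no UMI, and their part in these differences was not tested. The mitochondrial share also differed, and mt-Co3 was at 5259 CPM at day 16 and 1140 CPM at day 20. With the 3 highest cell counts of each gene subtracted in both sets and the total UMIs unchanged, 50 genes were higher. That step lowers the smaller day 20 set more than the day 16 set. Among members without an Otp UMI 124 genes were higher and 148 lower of 3682 (3.37% and 4.02%), with Calb1 at 1184 against 72.7 CPM and Onecut2 at 116 against 9.48 CPM.

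In GFP low, where most members had Otp, the 127 cells with an Otp UMI were set beside the 68 without. Of 3926 genes 85 were higher (2.17%) and 149 lower (3.8%) in the Otp cells. C1ql3, which encodes a secreted protein of synapses, was at 372 CPM in the Otp cells and 1.79 CPM in the rest. Evx1 (ENSMUSG00000005503, chromosome 6, 52313498 to 52318378) was at 72.7 and 1.19 CPM, Evx2, its neighbour in the family, at 50.6 and 0 CPM, and En1 (ENSMUSG00000058665, chromosome 1, 120602418 to 120607992) at 106 and 22.7 CPM. Mab21l2 was at 543 and 143 CPM and Onecut2 at 630 and 315 CPM. Lower in the Otp cells were Shox2, a homeodomain factor of excitatory ventral interneurons, at 4.01 and 372 CPM, the calcium buffer Calb2 at 125 and 1497 CPM, and Lhx2 at 43.8 and 300 CPM. Slc17a6 (167 and 161 CPM), Gad1 (12.6 and 13.7 CPM) and Pou2f2 (219 and 214 CPM) were close in both sets.

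Against the other gated neurons of GFP low, the members as a whole were higher for C1ql3 (246 against 44.2 CPM), its relative C1ql4 (93.3 against 14.3 CPM), Mab21l2 (407 against 148 CPM) and Onecut1 (104 against 42.8 CPM). Of 11 tested birth-order factors 2 were higher (Onecut1 and Onecut2, against 0.553% of all genes tested) and 5 lower (against 1.32%): Nfia, Nfib, Nfix, Neurod2 and Neurod6. Nfib, which is known from later-born neurons, was at 90.7 against 302 CPM and Nfix at 25.0 against 96.3 CPM. The rule shapes these counts, since the other gated neurons keep the 219 Neurod1 positive neurons that it dropped. Those held Neurod2 at 108, Neurod6 at 93.6 and Nfib at 468 CPM. Against gated neurons with none of the rule's genes, Nfia, Nfib, Nfix and Neurod6 were again lower. Onecut1 and Onecut2 were again higher there, and Neurod2 was not called.

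The Otp cells of GFP low divided by Evx1 and En1. Evx1 was found in 65 of the 127 cells (51.2%, 42.2 to 60.2%), En1 in 26 (20.5%, 13.8 to 28.5%) and both in 1. Of the 65 Evx1 cells 60 had Slc17a6 and 2 had a Gad gene. Of the 26 En1 cells 15 had a Gad gene and 4 had Slc17a6. The Evx1 cells were thus mostly cells with the glutamate transporter, and most En1 cells carried a gene for GABA synthesis. The rule had dropped 184 GFP low cells for Slc32a1 alone, and the Slc32a1 positive neurons there held Otp at 206 CPM. These splits therefore describe the members and not all Otp neurons of the library. In hair cells of the same library, taken as stray RNA, Evx1 and En1 each had a UMI in 0.8% of cells. Over all members, the Evx1 cells numbered 1 of 185 at day 16, 4 of 80 at day 20, 8 of 23 in the GFP high library and 67 of 195 in GFP low, and all 4 day 20 cells and all 8 GFP high cells also had Otp. The En1 cells numbered 71, 26, 0 and 33.

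**Figure D4:**
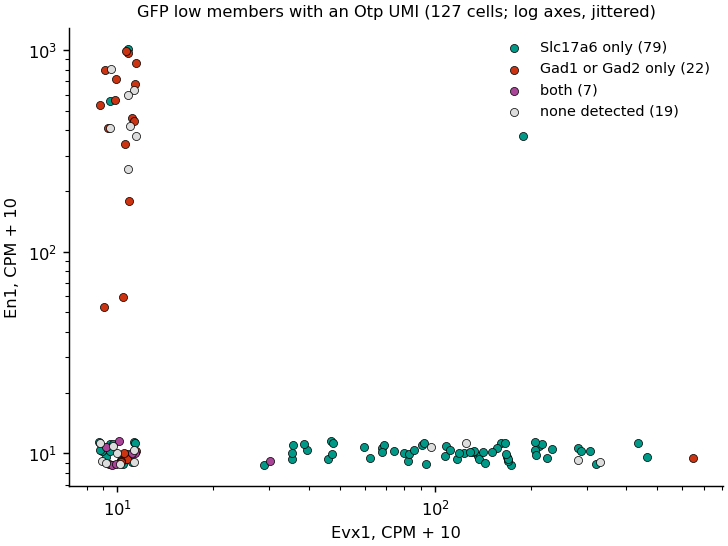
En1 against Evx1 in the 127 GFP low members with an Otp UMI, as CPM plus 10 on log axes with small random shifts, coloured by transmitter genes with a UMI. Evx1 was in 65 cells and En1 in 26, and 1 cell had both.

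The 64 Otp cells with Evx1 alone and the 25 with En1 alone, sets chosen after these values were seen, differed by the size rule in 214 of 3907 genes (5.48%), 111 higher (2.84%) and 103 lower (2.64%) in the Evx1 cells. Higher in the Evx1 cells were Evx2 (78.4 against 0 CPM), the corepressor gene Skor1 (83.4 against 0 CPM), the homeobox gene Uncx (81.7 against 0 CPM, with 64.9% of its UMIs in 3 cells) and the calcium channel subunit gene Cacna2d1 (161 against 0 CPM). Nrn1, which encodes a small membrane-anchored protein of growing neurites, was at 310 against 1.74 CPM, and C1ql4 at 205 against 22.6 CPM. Nefm, a neurofilament gene, was at 686 against 101 CPM, Slc17a6 at 208 against 41.7 CPM and Lhx1 at 467 against 207 CPM. Robo3, the receptor known from axons that cross the midline, was at 59.6 against 0 CPM. The Evx1 cells were the deeper set, with a median of 26094 UMIs against 19174.

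The En1 cells were higher for Gad2 (86.8 against 0.552 CPM), for the transcription factor genes Foxd3 (60.8 against 1.66 CPM) and Pax5 (69.5 against 8.84 CPM), and for Lmo3 (228 against 5.52 CPM). Of 4 tested neuropeptide genes 3 were higher in the En1 cells and 1 in the Evx1 cells, against 2.64% and 2.84% of all genes tested: Npy was at 382 against 8.28 CPM and in 14 of 25 cells, Pnoc at 165 against 7.73 CPM and in 16 of 25, Sst was the third, and Cartpt was on the Evx1 side at 77.3 against 19.1 CPM. Crabp1 was at 2108 against 276 CPM and in 22 of 25 cells. The immediate early genes Fos (111 against 38.7 CPM), Egr1 (154 against 50.8 CPM) and Junb (93.8 against 16.6 CPM) were also higher in the En1 cells, with 90.7% of the Junb UMIs in 3 cells. The keratins Krt14 and Krt5 were higher as well, in 2 and 1 of the 25 cells, and their part was not tested. Onecut2 (768 and 613 CPM), Mab21l2 (610 and 623 CPM), Pou2f2 (238 and 174 CPM) and Lhx5 (136 and 122 CPM) were not called between them. A further 37 Otp cells had neither Evx1 nor En1.

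Lhx1 cells of GFP low without Otp fell into other sets. Shox2 was found in 35 of the 68, and these were compared with the 33 that had neither Shox2 nor Otp, again after the values were seen. Of 4029 genes 143 were higher (3.55%) and 136 lower (3.38%) in the Shox2 cells. Lhx2 was at 453 against 92.7 CPM, Calb2 at 2140 against 629 CPM, and Emx1 at 167 against 1.40 CPM. Genes known from olfactory sensory neurons were among those higher: Omp, the olfactory marker protein, was at 109 against 4.21 CPM in 8 of 35 cells, Rtp1, a chaperone of odorant receptors, at 79.0 against 4.21 CPM in 12 cells, and Gfy at 156 against 36.5 CPM in 12 cells. Of the Omp UMIs 85.7% came from 3 cells, and of the Calb2 UMIs 72.0%. Gad2 was at 6.24 against 77.2 CPM. In the cells with neither, a few cells carried most of several genes: Hoxb5 was at 157 CPM in 7 of 33 cells, Gata2 at 71.6 CPM in 6, Tal1 at 88.4 CPM in 3, and Sst at 796 CPM with 96.1% of its UMIs in 3 cells. Of 7 tested Hox genes, which record position along the body axis, 6 were lower in the Shox2 cells and 0 higher, against 3.38% of all genes tested.

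**Figure D5:**
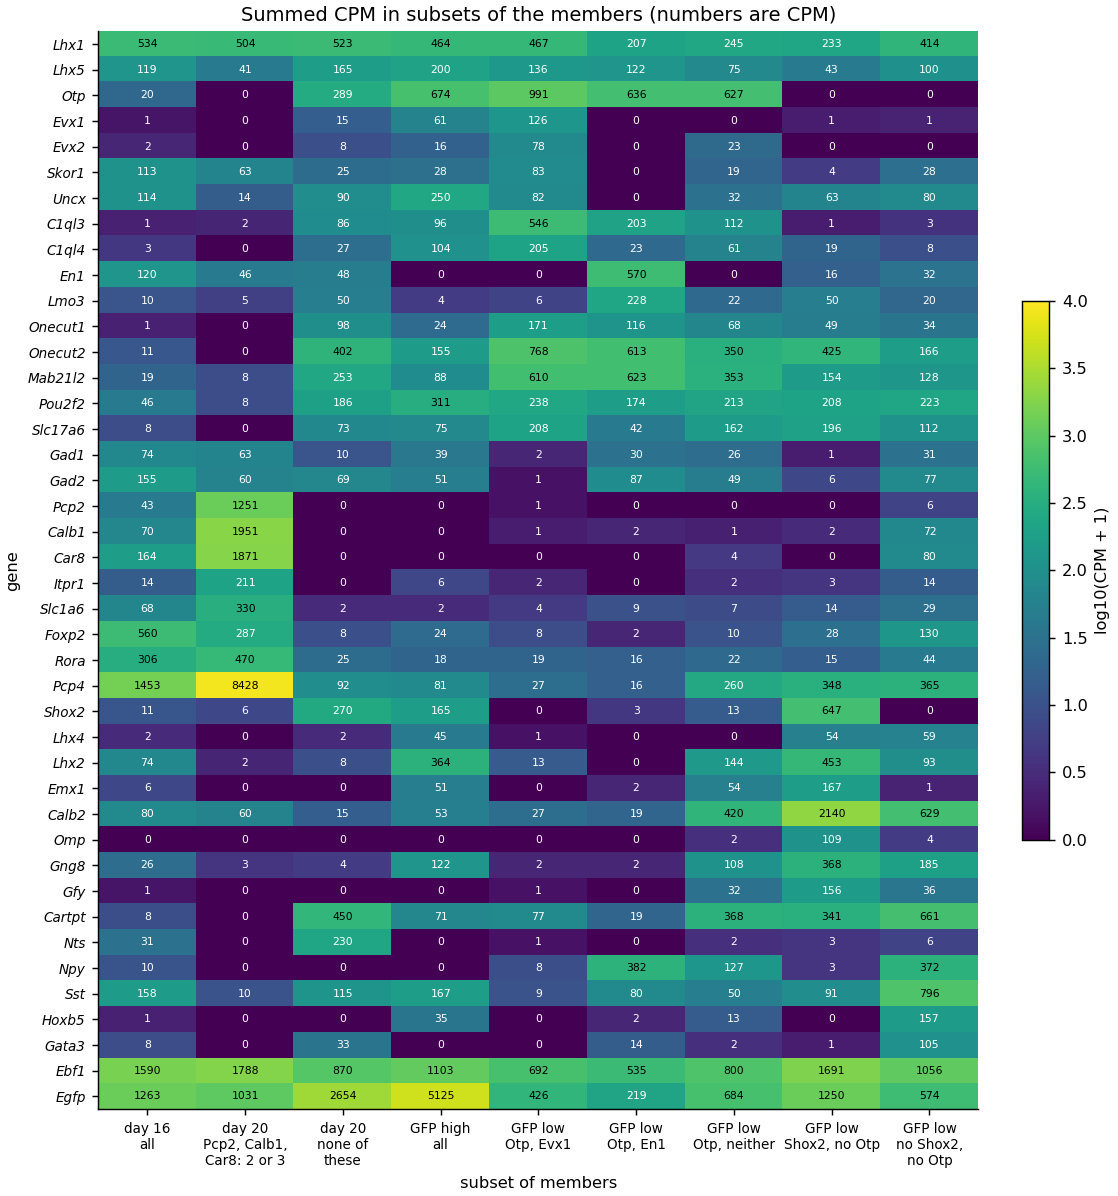
Summed levels of genes (vertical axis) in subsets of the members (columns), as log10(CPM + 1) in colour with the CPM printed in each field. Lhx1, a gene of the rule, was at 207 CPM or more in every subset. Calb1, Evx1, En1, Shox2 and Otp, which were used to make subsets, each stood out in some of them.

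GFP high held 23 members, so its values rest on few cells. Against GFP low, 103 genes were higher and 120 lower of 3956 tested (2.6% and 3.03%). Egfp was higher with a ratio of 8.14 (7.72 to 8.58), the signal on which these libraries were sorted. Of 7 tested neurogenic genes 5 were higher (Dll3, Nhlh1, Nhlh2, Insm1 and Ebf2) and 0 lower, against 2.6% of all genes tested; Nhlh2 was at 767 against 331 CPM. Robo3 was at 342 against 37.8 CPM and in 11 of 23 cells. The nuclear factor I genes were also higher, Nfib at 641 against 90.7 CPM in 11 cells, Nfia at 338 against 49.6 CPM in 8, and Nfix at 401 against 25.0 CPM with 89.3% of its UMIs in 3 cells. Neurod6 was at 134 against 4.88 CPM and Neurod2 at 97.7 against 1.63 CPM. Pyy (114 against 0.407 CPM) and Tac1 (93.6 against 4.07 CPM) each came from 1 of the 23 cells. On the other side, Onecut2 was at 155 against 522 CPM, Slc17a6 at 75.3 against 165 CPM, Calb2 at 52.9 against 592 CPM and the neurofilament-like gene Prph at 10.2 against 138 CPM. Npy and En1 had no UMI in GFP high and stood at 125 and 77.5 CPM in GFP low; the Poisson limit of a count of 0 in GFP high is 7.51 CPM for En1. Of 12 tested presynaptic genes 3 were lower (Syt4, Snap25 and Syn2) and 0 higher, against 3.03%. Evx1 was at 61.1 and 48.4 CPM and Otp at 674 and 551 CPM, neither past the rule. As an alternative, the 3 highest cell counts of each gene were subtracted in both sets, with the total UMIs of the sets unchanged. Then 10 genes were higher and 577 lower. That step takes a larger part of a set of 23 cells than of 195 and so lowers the ratios by construction. The 577 are no result. With Otp cells alone 136 genes were higher and 179 lower of 3948 (3.44% and 4.53%), and without them 228 and 233 of 4148 (5.5% and 5.62%).

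Most genes of a list for neurosecretory neurons of the hypothalamus were at or near 0, and 3 were not. Of its 11 genes 7, 5, 8 and 3 had no UMI at day 16, day 20, GFP high and GFP low. Sim1, the factor that acts with Otp there, had UMIs in 0, 1, 0 and 3 members, Trh in 3, 0, 0 and 1, Avp in 0, 0, 0 and 2, and Oxt in 0, 1, 0 and 0. Crh was at 12.4 CPM in GFP low, from 1 cell. The 3 genes of the list above 10 CPM in all 4 libraries are also known from many other neurons. Sst, which encodes the peptide somatostatin, was at 158, 87.3, 167 and 157 CPM, against 138, 135, 120 and 227 CPM in the other gated neurons. Pou3f2 was at 71.8, 77.3, 153 and 85.6 CPM and Arnt2 at 47.4, 20.0, 40.7 and 35.8 CPM. Only Sst and Pou3f2 could be tested against the other gated neurons, and neither was called in any library. Acetylcholine and dopamine genes were likewise low, Chat in 0, 0, 0 and 2 members and Slc6a3 in 0, 0, 0 and 1.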

How the data were processed

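Gene expression was measured in 4 libraries of 10x Genomics droplet RNA-seq, 1 per group. The deposited values are whole-number UMI counts for each gene in each barcode, without normalization. Per the file headers they were written by Cell Ranger (cellranger 6.1.2); build mm10, Seurat 4.0.6 and Cell Ranger 6.1.0 are named in the submitters' processing notes. The use of Seurat, the annotation and the strand setting were not given in the sources used here. Of 32289 genes listed, 32235 identifiers were found in GENCODE M21 on GRCm38, the source of coordinates; 78 share a symbol and were kept apart by identifier.

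Counts were summed over the cells of a set in each library, and CPM were taken over the total UMIs of that set. Levels carry exact Poisson 95% intervals, ratios exact conditional binomial intervals and shares exact Clopper-Pearson intervals. Log2 ratios are log2((CPM + 1)/(CPM + 1)), and a list's median is taken over its tested genes. A gene was called at a ratio of 2 or more with an interval excluding 1, at 50 CPM or more in either set and 30 or more UMIs over both. Such calls are a rule of size: there are no replicates and no p-values. The rule was tested on simulated data, with independent Poisson counts per cell from a pooled mean profile. Genes with most UMIs in few cells were not simulated, so this cannot show how often the rule calls such genes.

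Doublets were not removed, since the automatic threshold of Scrublet (Scanpy 1.11.5) called 1, 78, 3 and 4 cells; removal at 0.8% per 1000 barcodes (120, 205, 109 and 137 cells) was an alternative. Cells were not clustered. The members, the 41 gene lists with 452 genes and the tests were chosen with earlier results of these data known. Genes named are those of the rule and label with Atoh1 and Egfp, genes called in every library (up to 15 higher and 10 lower), the 10 highest and 10 lowest called ratios between libraries without mitochondrial and ribosomal genes, and of each list up to 5 by level and 3 by ratio. Further genes, the subsets by Otp, Evx1, En1, Shox2 and by Pcp2, Calb1 and Car8, and the genes given for those subsets were chosen after their values were seen. Alternatives covered the cell filters, the neuron gate, the UMI thresholds, thinning, the CPM minimum, the fold, TMM scaling (edgeR 4.0.16 in R 4.3.3), the mean of per-cell CPM, doublets and the removal of 3 cells. The removal of 3 cells took the 3 highest counts of each gene out of its sum and left the total UMIs of the set unchanged. It therefore weighs more on the smaller set of a comparison. The remaining software was matplotlib 3.10.9, pandas 2.3.3, scipy 1.17.1 and numpy 2.4.6 under Python 3.11.15.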

Additional observations from a re-analysis of the deposited data

Results flagged for a closer look

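Some genes lay on opposite sides in different libraries when the members were compared with the other gated neurons of the same library. For each the ratio of CPM was 2 or more in one library and 0.5 or less in another, both past the size rule. With 1 library per group the difference was not tested for any of them. The share of members with Otp also differs between the libraries, and its part was not tested. The other gated neurons differ too, since they keep the Lhx9 positive neurons that the rule dropped. These were 227 of 988 at day 16, 34 of 755 in GFP low and 2 of 176 in GFP high. At day 16 they held Onecut2 at 202, Shox2 at 162, Meis2 at 338 and Tac1 at 166 CPM. None of these genes was called against the Slc32a1 positive neurons of day 16, whereas Cartpt was lower. The part of this was not tested.

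Onecut2 had a ratio of 2.37 in GFP low and 0.126 at day 16. Cartpt had a ratio of 2.23 at day 20 and 0.12 at day 16, and Shox2 2.31 at day 20 and 0.107 at day 16. Meis2 stood at 2.25 in GFP high and 0.206 at day 16. Pcp4 stood at 3.59 at day 20 and 0.124 in GFP high, where members held 81.4 CPM and the other neurons 658 CPM. Cck, which encodes the peptide cholecystokinin, was at 3.89 at day 20 and 0.279 in GFP low. Robo3 was at 2.53 in GFP high and 0.448 in GFP low, and the Notch ligand gene Dll3 at 2.22 and 0.438. Prph was at 2.23 in GFP low, and at day 20 it had 0 UMIs in members against 70.5 CPM in the others. Tac1 was at 8.16 in GFP high, from 1 of 23 cells, and 0.181 at day 16.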

How the results depend on the processing

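No paired analysis was possible because each group has 1 library and the labels give no replicate numbers. The share of kept cells was 5.29%, 1.76%, 0.649% and 5.10% in the libraries of day 16, day 20, GFP high and GFP low in that order. With Lhx1 accepted at 1 UMI it was 7.07% at day 16 and 2.37% at day 20; a stricter neuron gate gave 4.43% at day 16 and 4.42% in GFP low; thinning to 5000 UMIs gave 7.77%, 2.27% and 6.79% at day 16, day 20 and in GFP low. In GFP high no alternative moved the share beyond its interval.

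The count of genes called in every library was 1 higher and 1 lower. It was 2 higher and 9 lower with a 20 CPM minimum, 2 and 31 with none, and 2 and 2 with the other neurons cleared of Otp and Lhx1 carriers. The higher count was 0 with Lhx1 at 1 UMI, 2 with Otp at 2 UMIs and 0 at a fold of 3. The lower count was 2 by the mean of per-cell CPM and 15 without the 3 cells with the highest counts of each gene. That subtraction weighs more on the members, the smaller set in every library, so the 15 are no result. For members without an Otp UMI, an alternative chosen after seeing the data, it was 0 higher and 2 lower.

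GFP high over GFP low gave 103 higher and 120 lower genes: 248 and 350 with a 20 CPM minimum, 282 and 577 with none, 51 and 45 at a fold of 3, 10 and 577 without the 3 cells, and 228 and 233 without Otp cells. Day 20 over day 16 gave 102 and 146: 225 and 353 with a 20 CPM minimum, 331 and 608 with none, 41 and 46 at a fold of 3, 50 higher without the 3 cells, and 250 lower by the mean of per-cell CPM.

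The following log2 ratios turned. Without Otp cells, Otp against the other neurons became -3.89 at day 20, -6.12 in the GFP high library and -6.77 in GFP low by construction, Evx1 became -2.32 in GFP high and En1 -0.20 in GFP low; Mpped1 in GFP high over GFP low became -1.48. Without the counts of the 3 cells, Tac1 became -1.69, Mpped1 -1.39, and 9130024F11Rik and Olig2 -0.69 each in GFP high over GFP low. That subtraction weighs more on the smaller set, which is GFP high here and day 20 in the next comparison. Ube2c, day 20 over day 16, became -1.43 without the 3 cells and -1.17 with doublets removed; the cause was not tested. In these small sets 3 cells can carry a gene, 23 members limit GFP high, and at a median of 14247 to 23165 UMIs per cell the absence of a UMI does not show the absence of a transcript.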

Other observations

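Day 16 members and the Slc32a1 positive neurons of the same library, which the rule set apart by at least 2 Slc32a1 UMIs, differed in a short list of genes. Members were lower for Otx2, a homeodomain factor of the fore- and midbrain (2.71 against 62.8 CPM), Pax2 (19.3 against 74.3 CPM), Tfap2b (106 against 323 CPM) and the peptide gene Pnoc (20.0 against 73.3 CPM). Pax2 and Tfap2b are known from inhibitory interneurons. Higher in members were Slc1a6 (68.0 against 26.1 CPM) and Lhx2 (73.8 against 26.8 CPM). The highest ratios among the 11 genes that were higher belonged to other genes, several of them with most of their UMIs in few cells. S100a13 was at 107 against 9.23 CPM with 94.3% of its UMIs in 3 cells, the heat shock gene Hspa1a at 73.5 against 8.36 CPM with 90.8% in 3 cells, and Sfn, an epidermal gene, at 57.6 against 18.6 CPM with 81.2% in 3 cells. Mgp (82.6 against 10.3 CPM) and the metallothionein gene Mt1 (196 against 62.0 CPM) were higher as well. Hspa1a also had the highest ratio at day 16 against all other gated neurons, 10.6.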
